A study of Drosophila melanogaster with 4 samples.

Results

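The regions described here are the stretches of U, the unplaced sequence of the Drosophila melanogaster release 5 genome, that were listed as enriched for histone H3 in fly heads. They were chosen as every line of the combined list that lies on U, which gave 389 of its 16757 regions. The study used ChIP-seq, in which DNA bound to a protein is precipitated with an antibody and sequenced, on head nuclei of wild-type Oregon-R-modENCODE flies at the stage given as Mixed Adult. There were 2 ChIP libraries, made with an antibody labelled H3 antibody3, and 2 Input libraries of unprecipitated DNA, 1 for each ChIP library. Heads were sieved from flies of population cages, so each library pools many animals and all cell types of the head. All 4 libraries share strain, genotype, stage and tissue, so antibody against Input is the only contrast in the design, and it enters the files through the authors' calling of enriched regions. The authors deposited 1 list of regions for each ChIP replicate and 1 combined list for both, with a position and a score for each region. Separate cages or collections are not recorded for the replicates, and differences between them may be technical. Regions of H3 enrichment hold no cell type markers, and the head origin was not checked here.

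Histone H3 is 1 of the core proteins around which DNA is wrapped in every nucleosome, so enrichment of H3 over Input reports where nucleosomal DNA was recovered more strongly than bulk chromatin. U joins assembled scaffolds that could not be assigned to a chromosome. Such scaffolds come largely from heterochromatin, the compact and repeat-rich part of the genome around the centromeres and on the Y, and hold transposon remnants and other repeated sequence. Regions that are neighbours on U need not be neighbours in a chromosome, and no gene, exon or intron is given for them here.

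U carried few and scattered regions but most of the highest scores. The 389 regions covered 583.6 kb, or 5.81% of the 10049037 bp of U. The 4 pericentric sequences 2LHet, 2RHet, 3LHet and 3RHet, called the Het sequences below, were covered over 8.11% of their length, and the 5 major arms (X and both arms of chromosomes 2 and 3) over 21.8%. The replicate lists held 48 and 46 regions on U, over 0.790% and 0.770% of its length (0.780% ± 0.0138, SD, n = 2), against 0.990% and 1.33% of the Het sequences and 2.96% and 3.60% of the major arms (3.28% ± 0.448). The covered share of U was thus lower than that of the arms by more than the spread between replicates. As a ratio to the arms it was 0.267 in the combined list, 0.266 in the replicate 1 list and 0.214 in the replicate 2 list. The values of U and of the other sequences come from the same 2 lists, and an exact two-sided permutation test over 2 such pairs can give no p below 0.5. They are therefore set side by side without a test. The files hold no read counts, so the depth behind each region is unknown. Exact 95% binomial (Clopper-Pearson) intervals are given for shares of regions. They cover the counting of regions only and treat regions as independent, which neighbours and copies of one sequence need not be. Beside a count of 0 the limit printed is 3 counts over the total, which is not an end of that interval.

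The scores of U regions spread over a wide range. On U the score ran from 0.181 to 4.08, with a median of 0.854 and the middle 50% of regions between 0.535 and 1.48. Of the 389 regions 156 scored above 1, a share of 40.1% (interval 35.2% to 45.2%), where the whole combined list had 1.55%. On the Het sequences 47 of 457 regions did (10.3%), and on the major arms 49 of 15878 (0.309%). U therefore held 60% of all regions above 1 with 2.32% of the regions. The remaining 33 regions of the list held 8 above 1, in 4 of 7 regions on YHet, 1 of 4 on XHet and 3 of 22 on chromosome 4. The tail went on: 59 U regions scored above 2 (15.2%) and 22 above 3 (5.66%), against 17 and 5 on the Het sequences and 13 and 2 on the major arms.

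**Figure D1:**
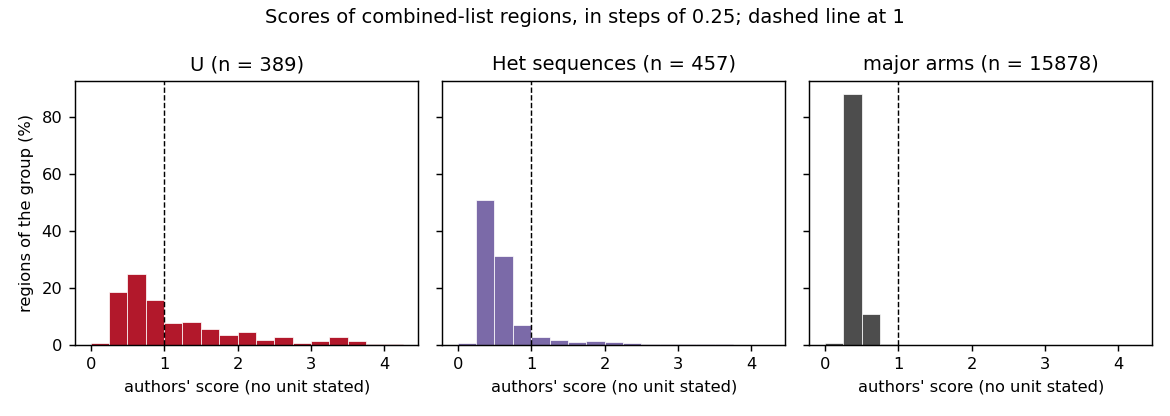
Share of combined-list regions (y axis, percent) by the authors' score (x axis, no unit stated, steps of 0.25) on U, the Het sequences and the major arms, with a dashed line at 1. The bars of U reach past 4, with 40.1% of regions above 1, against 10.3% on the Het sequences and 0.309% on the major arms.

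The same difference stood in each replicate list. In replicate 1 25 of the 48 U regions scored above 1 (52.1%), and in replicate 2 21 of the 46 (45.7%), where the whole lists had 1.89% and 1.40%. On the Het sequences the shares were 19.2% and 16.7%, and on the major arms 0.360% and 0.226%. The shares on U were 48.9% ± 4.55 (SD, n = 2), so they lay above those of the Het sequences (17.9% ± 1.81) by more than the replicate spread. No natural break lies at 1: the nearest scores on U were 1.003 just above it and 0.993 just below, and 17 regions lay within 0.05 of it.

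The scores on U fell on a grid of values that shows their scale. The scale is not stated in the sources used here. Divided by 1 common factor of 1.06, the power of 2 with the score as exponent was a ratio of whole numbers with a denominator of at most 1000 for all 389 U regions (relative tolerance 1e-12). This also held for 16722 of the 16757 combined regions (99.8%). The deposited score thus has the form of a base 2 logarithm of a ratio, plus 1 constant (0.0828). The factor is the largest that makes each U score of at least 3 a whole number: the highest score on U, 4.08, then stands for 16, and the scores of 3.54, 3.25 and 3.08 for 11, 9 and 8. Whether these whole numbers are read numbers is not given, a ratio in lowest terms may come from larger numbers, and no depth was inferred from them.

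Small denominators were more frequent on U than on the Het sequences and the major arms. In lowest terms the denominator had a median of 27 on U, 109 on the Het sequences and 189 on the major arms. A denominator of 1 occurred in 49 U regions (12.6%), against 12 regions of the Het sequences (2.64%) and 12 of the major arms (0.0757%). Of these 49 regions 22 scored at least 3 and have a denominator of 1 through the choice of the factor, and the other 27 scored less. A score above 0.0828 with denominator 1 cannot lie below 1.08, so their place above 1 is arithmetic and no finding. Their median length was 1004 bp. With denominators of 2 to 5, 40 of 53 U regions scored above 1, with 6 to 20 48 of 75, with 21 to 100 19 of 115, and with more than 100 0 of 97, which allows a share of up to 3.09%. These counts are a description, since the highest scores set the factor on which the denominators rest.

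Many U regions had exactly the same score as another. On U 132 regions (33.9%, interval 29.2% to 38.9%) shared their value with at least 1 other U region, and these fell on 45 values. Of the values 28 were shared by 2 regions, 7 by 3 and 10 by 4 or more. Counted against any region of the combined list, 251 U regions had a repeated score (64.5%), where the whole list had 72.9% and the Het sequences 70.7%. Counted this way, exact repeats were no more frequent on U than in the list as a whole. Counted within each sequence, they were rarer on the Het sequences than on U. There 4 of the 104 regions met by a replicate region had one (3.85%), and 20 of the 353 others (5.67%). On the major arms the 2 shares were 31.2% and 47.3%. The sequences differ in their number of regions, and the contrast was not tested. Within U, 99 of the 156 regions above 1 shared a value with another U region (63.5%), against 33 of the 233 at or below 1 (14.2%).

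The most frequent values on U lay high. The score 3.25 was given to 8 U regions, all of 1001 bp, of which the first spans U 2045518 to 2046518 and the last U 9760339 to 9761339, and to 1 region elsewhere, on the Het sequences. The score 2.67 was also given to 8 U regions, 6 of them of 1001 bp, from U 110838 to 111838 through U 9407402 to 9408402, and to 5 regions elsewhere. The score 2.08 was given to 7 U regions of 1001 to 2247 bp, from U 2729448 to 2731153 through U 7786687 to 7787687, and to 7 elsewhere, and the score 1.67 to 7 U regions of 1001 to 1951 bp. These frequent scores stand for 9, 6, 4 and 3 with a denominator of 1. Only 1 of these 30 regions, U 7392936 to 7395182 with a score of 2.08, was met by a replicate region. On all of U 20.1% were met, but of the U regions shorter than 1301 bp only 4.64%. The median lengths for these scores were 1001, 1001, 1560 and 1107 bp in the order given, and the part of length was not tested.

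**Figure D2:**
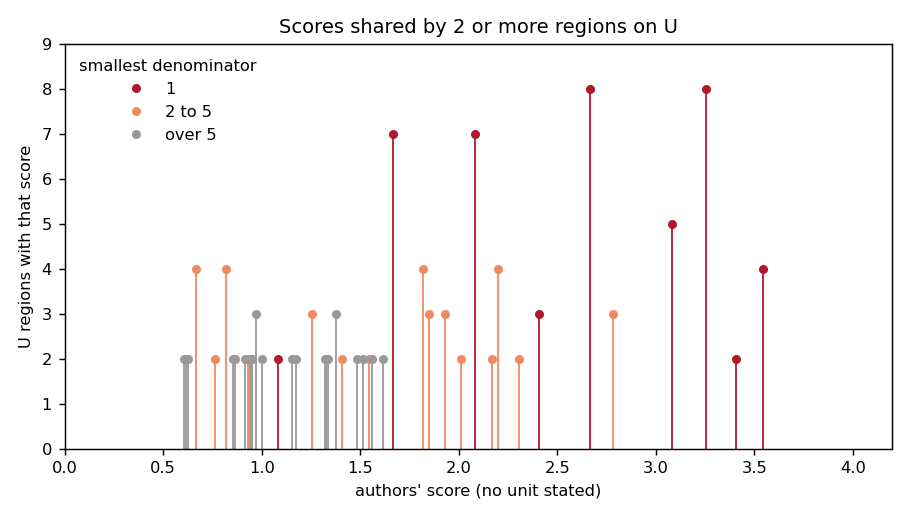
Number of U regions (y axis) with each score that at least 2 U regions share (x axis, authors' score, no unit stated), coloured by the denominator of the score's ratio in lowest terms. The values with denominator 1 reach up to 8 regions each, at 2.67 and 3.25, whereas most values below 1 are shared by 2 regions.

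Regions with the same score were not neighbours. The 87 gaps between successive U regions of the same score were 58491 bp or more, with a median of 1421 kb, and 0 were under 5 kb. How many would be under 5 kb with the scores in random order was not computed, so this 0 is only a description. Same score and same length coincided in 7 groups that held 30 regions, and all 30 were 1001 bp long. The 132 regions with a score shared on U were shorter (median 1074.5 bp) than the other 257 (median 1459 bp), and their denominators had a median of 3 against 59. They were met by a replicate list in 15 of 132 cases (11.4%), against 63 of 257 (24.5%).

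Regions on U were short, and the shortest class had the highest median score. The median length was 1305 bp, with the middle 50% between 1052 and 1780 bp and a maximum of 4283 bp, against medians of 1318 bp on the Het sequences and 1429 bp on the major arms. Exactly 1001 bp, the shortest length of any region not cut off by a sequence end, was the length of 54 U regions (13.9%, interval 10.6% to 17.7%), where the whole list had 2.94%. Of these 54 regions 43 scored above 1, and their median score was 2.08, although the 7 highest scores belonged to regions of 1017 to 1181 bp. Among U regions of 1301 to 1999 bp the median score was 0.768, and among the 13 of at least 3000 bp it was 0.518. On the major arms the same length classes had medians of 0.447, 0.391 and 0.427, a narrower range than on U.

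Across the 389 U regions Pearson's r between length and score was -0.33 and Spearman's rho -0.38, as a description over regions of 1 list. On the major arms rho was -0.087. In the replicate lists, whose shortest region is 1301 bp, r on U was -0.014 and rho 0.071 in replicate 1 (n = 48), and r was -0.29 and rho -0.35 in replicate 2 (n = 46). The median lengths on U were 1540.5 and 1495.5 bp in the replicates, against 1491 and 1507 bp on the major arms.

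The 10 highest scores on U belonged to short regions that no replicate list held. The highest, 4.08, was given to U 7201022 to 7202104, the second, 3.78, to U 8306056 to 8307196, and the third, 3.67, to U 7531807 to 7532987. Regions at U 4167368 to 4168431, U 5856084 to 5857100, U 6607197 to 6608226 and U 7052554 to 7053625 shared a score of 3.54. Those at U 3810849 to 3811910 and U 4047261 to 4048261 shared 3.40, and the tenth place was shared by the 8 regions at 3.25. The first 9, with the earliest of those 8, were 1001 to 1181 bp long. Replicate regions met 0 of these 10, which allows a share of up to 30%, and 0 of the 22 regions above 3, which allows up to 13.6%. On all of U 20.1% were met. All 22 were 1001 to 1181 bp long, however, and replicate regions met only 9 of the 194 U regions shorter than 1301 bp (4.64%). The counts of 0 are therefore not set apart from what short regions of U had.

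The 10 longest regions of U mostly had low scores for U and were met more often than U regions as a whole. They were 3176 to 4283 bp long, with scores of 0.328 to 1.097 and a median of 0.513. Replicate 1 met 5 of them, replicate 2 met 5, 3 were met by both and 7 by at least 1. On all of U 20.1% were met. Of the 13 U regions of 3000 to 5000 bp, however, 76.9% were met, and of major-arm regions of that length 71.9%. The count of 7 is therefore not set apart from what long regions had. The longest, U 392516 to 396798, scored 0.412 and was met by replicate 1 alone, whose region there scored 0.795. The second, U 5684277 to 5688267, and the third, U 1396142 to 1399892, were met by both replicates. The only one of the 10 with a score above 1 was U 4230061 to 4233253 (3193 bp, 1.097), which was met by neither. The lists of the 10 highest and the 10 longest regions had 0 regions in common.

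Of the 389 combined regions on U 78 were met by a region of at least 1 replicate list (20.1%, interval 16.2% to 24.4%), where the whole combined list had 26.4%. Replicate 1 alone met 35, replicate 2 alone met 32, both met 11 (2.83%, where the whole list had 2.80%), and 311 were met by neither (79.9%). All 3 lists rest on the same ChIP libraries, so these counts describe the lists and are no independent check of a region. The regions met by a replicate were longer, with a median of 1997 bp against 1180 bp for the unmet, and scored lower, with a median of 0.702 against 0.896. The difference was 817 bp in length and -0.19 in score. It was of similar size for each replicate: -0.20 for regions met by replicate 1 and -0.19 for those met by replicate 2. Scores above 1 were held by 21 of the 78 met regions (26.9%) and 135 of the 311 unmet ones (43.4%). Scores shared with another U region were held by 15 of the met (19.2%) and 117 of the unmet (37.6%).

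On the other sequences the met regions were also longer, but their scores lay close to those of the unmet ones. On the Het sequences the medians were 1955.5 bp and 0.500 for met regions and 1245 bp and 0.492 for unmet ones. On the major arms they were 1901 bp and 0.416 for met regions and 1294 bp and 0.410 for unmet ones. The score difference was thus 0.0081 and 0.0059 there, against -0.19 on U. Regions are not replicates, and this contrast was not tested.

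Length accompanied the difference on U. Of the 194 U regions shorter than 1301 bp, the shortest region a replicate list holds, 9 were met (4.64%), and of the 195 others 69 were (35.4%). Among these 195 longer regions the median score was 0.684 for the met and 0.734 for the unmet, a difference of -0.050 in place of -0.19. Scores above 1 were then held by 19 of 69 met regions (27.5%) and 38 of 126 unmet ones (30.2%). The share met was 21.4% at 1301 to 1999 bp and 75.7% at 2000 to 2999 bp (interval 58.8% to 88.2%), against 31.0% and 56.6% on the major arms. Within length classes the sign of the score difference varied: at 1301 to 1999 bp the medians were 0.742 for 31 met and 0.772 for 114 unmet regions, whereas at 2000 to 2999 bp they were 0.680 for 28 met and 0.557 for 9 unmet ones. Below 1301 bp the met regions numbered 2 to 4 in each class, and at 1002 to 1100 bp their median was the higher (1.22 for 2 met, 0.937 for 68 unmet). By score, the share met on U was 26.7% up to 0.5, 23.4% from 0.5 to 1, 20.6% from 1 to 2, and 1 of 37 regions from 2 to 3. The median lengths of these score classes were 1436, 1468.5, 1272 and 1032 bp. In the lowest terms of the score's ratio, 1 of the 49 regions with denominator 1 was met and 32 of the 97 with a denominator over 100 were (33.0%). Their median lengths were 1004 and 1733 bp, and the part of length in these shares was not tested.

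**Figure D3:**
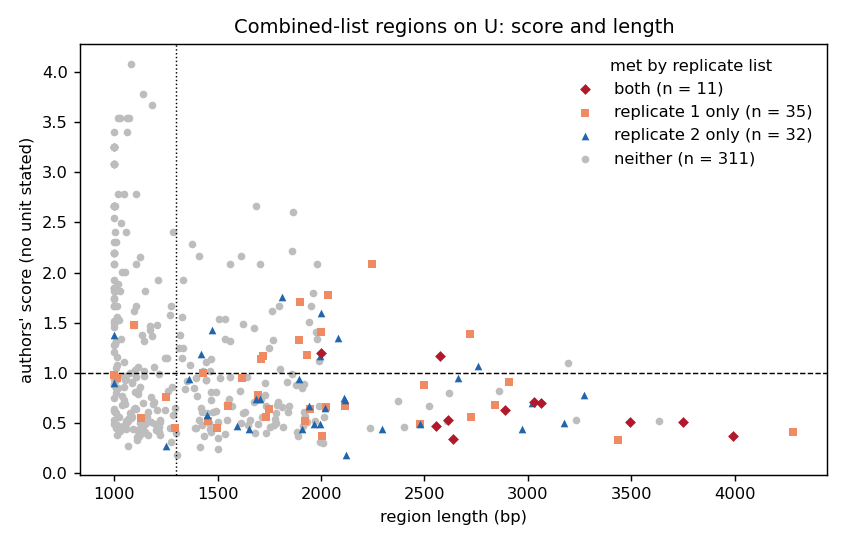
Authors' score (y axis, no unit stated) against length in bp (x axis) of the 389 combined regions on U, with symbols for the replicate lists that met each. The dashed line marks a score of 1 and the dotted line 1301 bp. Regions met by both replicates lie at 2001 to 3991 bp with scores up to 1.20, and the 22 regions above 3 are 1001 to 1181 bp long and unmet.

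The 11 regions met by both replicates were long and mostly of moderate score. They were 2001 to 3991 bp long, with a median of 2890 bp, and scored 0.346 to 1.20, with a median of 0.529. The best of them ranked 128 by score among the 389, and 2 scored above 1. Of the 11, 9 lay within 5 kb of another combined region, as 192 of the 389 did. None shared its score with another U region.

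In each of the 11 a replicate 1 region and a replicate 2 region overlapped, so each has a score from all 3 lists. They are set side by side without a difference, since it is not given whether the scores of different lists share a scale. The region U 6636995 to 6638995 scored 1.70 in the replicate 1 list, 1.45 in the replicate 2 list and 1.20 in the combined one, although the replicate regions shared only 402 bp. The region U 7313584 to 7316156 scored 1.28, 1.62 and 1.17. These were the only 2 with scores above 1, and they were above 1 in every list.

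The next highest were U 7932786 to 7935815, with 0.880, 0.805 and 0.713 in the same order of lists, and U 43904 to 46968, with 0.732, 0.868 and 0.703. The region U 6314343 to 6317232 scored 0.633, 0.680 and 0.634, and U 2426383 to 2428994 scored 0.585, 0.701 and 0.529. The region U 6046312 to 6049803 scored 0.556, 0.566 and 0.514, and its replicate regions shared 2350 bp, more than those of any other of the 11. These 5 lay between 0.514 and 0.880 in every list.

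The remaining 4 had combined scores of 0.346 to 0.512. The region U 1396142 to 1399892 scored 0.794, 0.643 and 0.512, and U 6111622 to 6114176 scored 0.615, 0.527 and 0.470. The region U 5684277 to 5688267 scored 0.445, 0.460 and 0.371, and U 5631211 to 5633847 scored 0.412, 0.500 and 0.346, the lowest combined score of the 11. Pearson's r between the replicate scores was 0.915 and Spearman's rho 0.855, as a description over 11 regions called in both lists. The shared stretch had a median of 1453 bp and was at least 50% of both regions in 9 pairs.

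**Figure D4:**
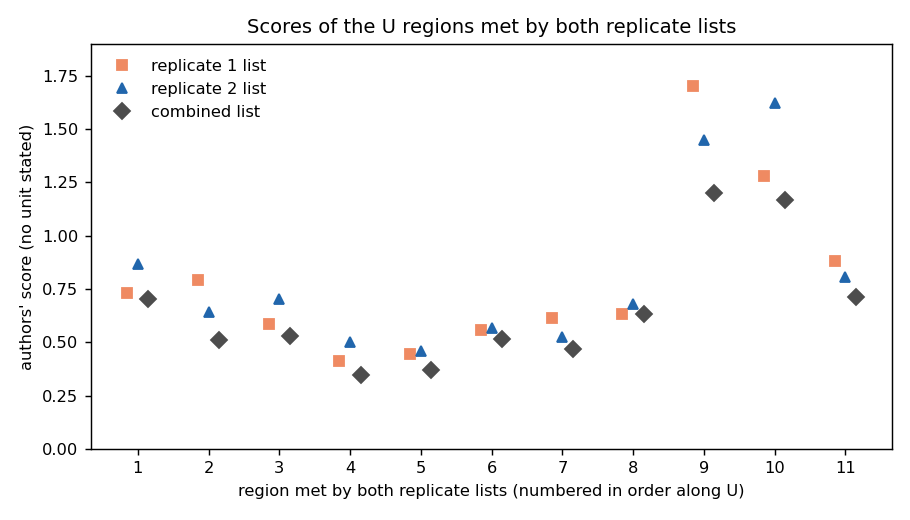
Authors' score (y axis, no unit stated) of the 11 U regions met by both replicate lists (x axis, numbered in order along U), as given in the replicate 1, replicate 2 and combined lists. The ninth and the tenth lie above 1 in all 3 lists, and the other 9 lie below 0.9.

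Seen from the replicate lists, 11 of the 48 replicate 1 regions on U met a replicate 2 region (22.9%, interval 12.0% to 37.3%), where the whole replicate 1 list had 19.1%. For the 46 replicate 2 regions it was 11 (23.9%, interval 12.6% to 38.8%), where the whole list had 15.8%. The intervals hold the shares of the whole lists. In bases the replicate lists shared 15444 bp on U, out of 79347 bp in replicate 1 and 77390 bp in replicate 2, a Jaccard index of 10.9%.

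On U the replicate regions found in both lists scored lower than those found in one. In replicate 1 the median score was 0.633 for the 11 shared regions and 1.24 for the other 37. In replicate 2 it was 0.680 for the 11 and 1.03 for the other 35. Scores above 1 were held by 2 of the 11 in each list, against 23 of 37 and 19 of 35. The shared regions were longer, with medians of 1668 and 1779 bp against 1532 and 1480 bp. Both replicates thus had the same sign, and with 1 value for each library it was not tested.

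The 3 highest replicate 1 regions on U scored 3.87 (U 7393612 to 7395182), 2.95 (U 2034113 to 2035774) and 2.81 (U 8684777 to 8686777). The 3 highest of replicate 2 scored 2.64 (U 6422881 to 6424282), 2.20 (U 2467598 to 2468980) and 1.99 (U 6829445 to 6830774). None of these 6 met a region of the other replicate list, which also held for most U regions: 37 of 48 in replicate 1 and 35 of 46 in replicate 2. Each of the 6 met a combined region, with combined scores of 2.08, 1.77, 1.71, 1.75, 0.741 and 1.60 in the same order. In all, 45 of the 48 replicate 1 regions and 42 of the 46 replicate 2 regions on U met a combined region (93.8% and 91.3%). The shares lay close to this on the Het sequences (94.2% and 94.4%) and on the major arms (96.5% and 96.6%). The 7 U regions that met none lay 1377 to 81639 bp from the nearest combined region, and 5 of them scored above 1.

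Along U the regions were spaced more widely than on the Het sequences and the major arms. The median distance to the nearest region was 5257 bp on U, 3809 bp on the Het sequences and 1436 bp on the major arms. Of the U regions 192 lay within 5 kb of another (49.4%, interval 44.3% to 54.4%), where the whole list had 82.7%, the Het sequences 57.5% and the major arms 84.3%. The density on U was 38.7 regions per Mb, against 52.3 on the Het sequences and 133.4 on the major arms. Spacing was therefore wider where regions were fewer, and no test of clustering beyond density was made.

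**Figure D5:**
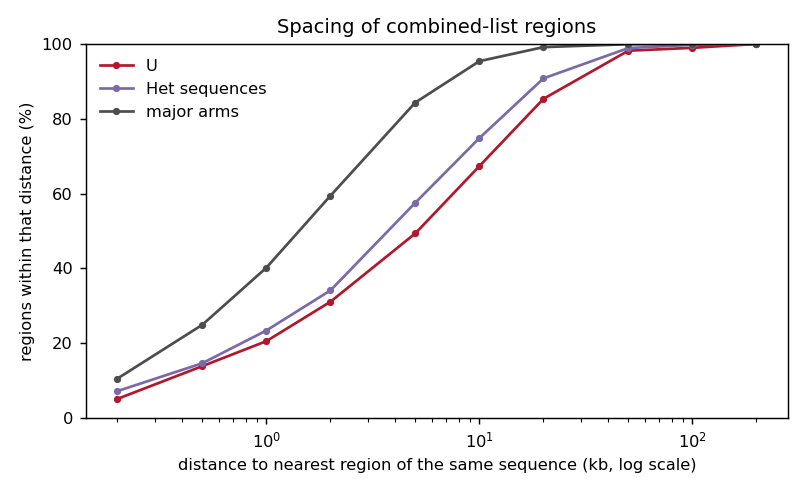
Share of combined-list regions (y axis, percent) that lie within a given distance of the nearest region on the same sequence (x axis, kb, log scale) for U, the Het sequences and the major arms. At 5 kb the curve stands at 49.4% for U, against 57.5% and 84.3%.

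Within U the spread was uneven. The 388 gaps between neighbours had a median of 12757.5 bp and ran from 14 bp to 249.1 kb, the longest from U 621513 to 870648, and 17 exceeded 100 kb. Neighbours less than 5 kb apart formed 82 runs that held 192 regions, of which 19 runs had 3 or more, while 197 regions stood alone. Counts in the 101 windows of 100 kb ranged from 0, in 8 windows, to 13, with a mean of 3.85 and a variance of 6.93, 1.80 times the mean. The last window, U 10000001 to 10049037, is cut short by the end of U and is among the 8 empty ones. The densest window, U 300001 to 400000, held 13 regions over 20.8% of its bases, with a median score of 0.605 and 3 met by a replicate. The next, U 5500001 to 5600000, held 10 over 12.0%, with a median score of 1.09 and 0 met.

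The largest run held 6 regions between U 5501222 and 5519591, with a median score of 1.76, a highest of 2.67 and 4 above 1, and 0 met. Runs of 5 lay at U 307596 to 323222, with scores of 0.508 to 0.644 and 0 met, and at U 2462729 to 2479009, with scores of 0.494 to 0.957 and 3 met. These runs thus differed in score. Their counts of met regions are small, and on all of U 20.1% were met. Lengths differed too: 1001 to 1386 bp in the run of 6, and 1009 to 1932 and 1107 to 2723 bp in the 2 runs of 5. Whether overlap differed between runs was not tested. Regions in runs had a median score of 0.703 with 61 of 192 above 1 (31.8%), and single regions 0.972 with 95 of 197 (48.2%). A replicate list met 49 of the regions in runs (25.5%) and 29 of the single ones (14.7%). Regions in runs were also longer, with a median of 1373.5 bp against 1271 bp, and the part of length in these differences was not tested.

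High scores lay more in the second part of U. The stretch from U 1 to 5024518 held 193 regions with a median score of 0.648 and 49 above 1 (25.4%). The stretch from U 5024519 to 10049037 held 196 regions with a median score of 1.13 and 107 above 1 (54.6%). The number of regions, the share met (21.2% and 18.9%) and the covered share (6.01% and 5.61%) lay close together in both stretches. Regions were shorter in the second stretch, with a median length of 1223.5 bp against 1428 bp in the first, and the part of length in the score difference was not tested. By windows of 1 Mb, 2.70% of regions scored above 1 in U 1000001 to 2000000, the lowest share, and 67.6% in U 8000001 to 9000000, the highest. The replicate lists held 23 and 21 regions in the first stretch and 25 and 25 in the second. After a region above 1, the next region along U was above 1 in 82 of 155 cases (52.9%), and after a region at or below 1 in 74 of 233 (31.8%).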

How the data were processed

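Histone H3 ChIP and Input libraries of fly heads (2 each) are represented by 3 lists of enriched regions on FlyBase release 5, per the file headers. The authors deposited for each region a score, and its scale, caller and threshold are not stated in the labels or headers. The submitters' processing notes name Bowtie 0.12.7. For reads that map to several places and for joining the replicates, no method is given in these sources. Depth is unknown.

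Regions on U were taken from the combined list by sequence name. A region counted as met when it overlapped a replicate region by at least 1 bp. Shares have exact 95% intervals. Scores were compared as deposited to all digits, and written as ratios of whole numbers after removal of 1 common factor. On simulated data the ratio step was run with the factor given, and the search for the factor on a single made-up set of scores. Recovery of an unknown factor together with the ratios was not simulated. No test over regions was run. Regions were named by rule: the 10 highest scores, the 10 longest, those met by both replicates, the members of the most frequent repeated scores (first and last by position), the densest windows and the 3 highest of each replicate list. Runs, gaps and the 2 equal stretches of U were added after the values were seen, as was the length limit of 1301 bp. The members and lists were chosen with earlier results of these data known. Alternatives changed score, length, distance and overlap limits or left out 1 replicate. Python 3.11.15, numpy 2.4.6, pandas 2.3.3 and scipy 1.17.1 were used.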

Additional observations from a re-analysis of the deposited data

How the results depend on the processing

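The difference in median score between met and unmet regions kept its sign under the alternatives run (not within each length class, as given above), between -0.19 and -0.21 except under length limits, where it was -0.055 at 1100 bp and -0.050 at 1301 bp. Of 61 alternative values 33 moved, and 28 stayed within a tolerance that differs by quantity: the 95% interval for shares of regions, 1.5 times for the number of regions, and 1 SD between the 2 replicate lists for the rest. For the met-minus-unmet differences that SD comes from another contrast, replicate regions met by the other replicate list against the rest. Their score differences were -0.61 and -0.35, which gives a wide SD of 0.183. It is not the spread of the combined-list difference, which was -0.20 and -0.19 for the 2 replicates. The -0.055 and -0.050 under length limits were counted as within tolerance on this SD. Keeping regions at or above the combined list's median score covered 5.27% of U. Keeping regions of at least 1100 bp gave 4.55% of U covered, 30.1% above 1, 17.3% with a shared score, a median score of 0.708, 42.5% within 5 kb, 27.4% met and a met-minus-unmet length of 538 bp. At 1301 bp, a limit added after seeing the data, 35.4% were met and the length difference was 339 bp. Merging regions closer than 500 bp gave 5.87% covered, a median length of 1381 bp and 39.8% within 5 kb. A limit of 0.9 put 47.0% above it. Rounding to 3 decimals gave 46.5% shared scores, and counting against all sequences 64.5%. Within 2 kb lay 31.1% and within 10 kb 67.4%. With 1 replicate left out of the overlap, 11.1% to 11.8% were met, the score difference was -0.20 to -0.19 and the length difference 780.5 to 861.5 bp. Taking 1 replicate list instead, there were 46 to 48 regions over 0.770% to 0.790% of U, with 45.7% to 52.1% above 1, 4.17% to 8.70% with a shared score, a median length of 1495.5 to 1540.5 bp, a median score of 0.934 to 1.08 and 4.17% to 8.70% within 5 kb. These lists are shorter by construction, and the cause of the other shifts was not tested. No paired analysis was possible because no file used here lists regions or values for an Input library. With depth unknown, a region missing from a replicate list is not shown to lack enrichment.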
